A study of Mus musculus with 11 samples.

Results

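Abcc2, Abcc5 and Bcl2 are 3 genes that bear on how leukaemic cells withstand drugs, 2 of them drug efflux transporters and the third a survival factor. They were chosen by symbol from the 638 genes of a table that the authors deposited as the signature of disease progression, so they were selected for a difference already seen on these arrays. The arrays hold 45037 probe sets, and expression was measured in granulocyte-macrophage progenitors (GMPs), the marrow cells from which neutrophils and monocytes arise, which had been isolated from pooled mice by cell sorting as Lin– Sca-1– c-Kit+ CD34+ cells with high FcR II/III. The study models chronic myeloid leukaemia-like disease by loss of the transcription factor Irf8 and its passage to blast crisis by activation of beta-catenin (Ctnnb1), the transcriptional effector of Wnt signalling.

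The 11 arrays formed 3 groups. The 4 control arrays came from mice with the genotype MxCre–Ctnnb1(Ex3)fl/+, which carry 1 floxed Ctnnb1 allele; the labels do not settle whether the dash stands for absence of the recombinase. The 3 Irf8 KO arrays came, per the series text, from Irf8-/- mice whose floxed allele was not excised. The 4 Irf8 KO / b-cat(Ex3) arrays came from Irf8-/- mice in which exon 3 of 1 Ctnnb1 allele had been deleted, which leaves a beta-catenin that escapes degradation. Mx-driven Cre is switched on by interferon and acts well beyond GMPs, so the neighbouring blood and marrow cells of these mice were altered too. All mice, controls included, received 400 µg of poly(I:C), a double-stranded RNA that induces interferon, at each of 3 injections (days 0, 3 and 5), with harvest 10 to 14 days later. No source used here states how old the mice were. Mice with activated beta-catenin alone were not analysed here.

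Abcc2 and Abcc5, also called Mrp2 and Mrp5, belong to the ATP-binding cassette (ABC) family, most members of which use ATP to move molecules across membranes. Abcc2 exports organic anions and drugs joined to glutathione or glucuronic acid and is best known from the bile-facing membrane of the liver cell, while Abcc5 exports cyclic nucleotides and nucleotide analogues, among them metabolites of thiopurine drugs. Bcl2 holds the pore-forming proteins Bax and Bak in check at the mitochondrial surface and so blocks apoptosis. Irf8 has been described as a repressor of Bcl2 in myeloid cells.

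The deposited table names its genes but neither its groups nor its probe sets, and both were recovered from the array values. Each of the 638 deposited folds equalled, to within 2.04e-09 on the log2 scale, the mean of the 4 Irf8 KO / b-cat(Ex3) arrays minus the mean of the 4 control arrays for 1 probe set, and the next nearest probe set was at least 8.7e-07 away. None of the 638 rows (0) matched the differences of either other pair of groups. Positive values in the authors' deposited table therefore mean higher signal in Irf8 KO / b-cat(Ex3) than in control GMPs. The match gave 1 probe set for each of the 3 genes. The name of the one for Abcc2 carries an s, the mark of a probe set whose probes match several transcripts. Further probe sets for these genes, and genes outside the table, carry no name in the files and were not analysed here.

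The promoters of the 3 genes are shown because one change behind the arrays, beta-catenin activation, acts through DNA-bound TCF/LEF factors and the other removes a DNA-binding factor, Irf8. The windows run from 250 bases before to 50 bases after the RefSeq start of each gene in GRCm38.p6, at chr19:43782058-43782357 (plus strand) for Abcc2, chr16:20426345-20426644 (minus strand) for Abcc5 and chr1:106714241-106714540 (minus strand) for Bcl2. Capitals mark a match to a TCF/LEF motif.
Abcc2 promoter: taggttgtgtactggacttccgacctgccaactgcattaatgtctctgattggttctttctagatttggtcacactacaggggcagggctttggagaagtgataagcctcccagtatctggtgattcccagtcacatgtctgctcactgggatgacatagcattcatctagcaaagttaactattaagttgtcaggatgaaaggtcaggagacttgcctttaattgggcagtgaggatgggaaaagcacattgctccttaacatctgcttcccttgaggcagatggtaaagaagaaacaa
Abcc5 promoter: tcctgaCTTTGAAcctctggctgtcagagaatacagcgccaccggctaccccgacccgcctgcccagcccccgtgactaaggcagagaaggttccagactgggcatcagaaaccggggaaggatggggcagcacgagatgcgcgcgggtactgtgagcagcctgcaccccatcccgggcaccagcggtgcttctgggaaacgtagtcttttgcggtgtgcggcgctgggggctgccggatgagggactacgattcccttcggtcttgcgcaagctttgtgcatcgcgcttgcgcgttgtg
Bcl2 promoter: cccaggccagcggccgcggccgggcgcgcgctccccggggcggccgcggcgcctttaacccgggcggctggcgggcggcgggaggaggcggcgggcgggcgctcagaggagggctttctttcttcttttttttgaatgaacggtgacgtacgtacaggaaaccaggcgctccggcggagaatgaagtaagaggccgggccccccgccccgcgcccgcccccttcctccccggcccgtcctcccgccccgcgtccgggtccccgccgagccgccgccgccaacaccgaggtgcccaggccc
The 3 windows differ in their make-up. That of Abcc2 is poor in CG dinucleotides, with 1, and 5.4% of the 32851 mouse promoter windows of the same length had fewer. That of Abcc5 holds 24 (80% had fewer) and that of Bcl2 holds 44 (97.8% had fewer), with a GC content of 45.0%, 63.0% and 76.0% in the same order against a median of 52.7%. The TCF/LEF motif, searched on both strands as CTTTG followed by AA, AT, TA or TT, occurred once, as CTTTGAA in the Abcc5 window, and 16.9% of all windows held at least 1 such match. The interferon-response motif, GAAA repeated after any 2 bases (in 3.44% of windows), and the composite motif of PU.1 with Irf factors, GGAA and then GAAA after any 2 bases (in 2.72%), had no match in the 3 windows on either strand. The motifs were chosen after the sequences had been seen, the second and the third can overlap each other, and a match or its absence in so short a window is a description of letters only.

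Abcc2 signal was low in control GMPs and higher, on average, in each of the other groups. The log2 signal on the 4 control arrays was 3.91, 3.67, 3.66 and 3.94 for replicates 1 to 4. The Irf8 KO arrays gave 4.58, 4.14 and 3.95, and the Irf8 KO / b-cat(Ex3) arrays 4.56, 4.79, 4.45 and 4.85. All doubly modified arrays lay above all controls, while Irf8 KO replicate 1 stood among the doubly modified arrays and Irf8 KO replicate 3 cleared the highest control by a hair. Group means were 3.80 ± 0.15 (SD, n = 4) in controls, 4.22 ± 0.32 (SD, n = 3) in Irf8 KO and 4.66 ± 0.19 (SD, n = 4) in Irf8 KO / b-cat(Ex3) GMPs. On the control arrays 43.3 to 49.4% of all probe sets were dimmer than that of Abcc2, and on the doubly modified arrays 55.7 to 61.3%. The files hold no detection calls, so whether so dim a signal lies above background is not known.

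Abcc5 lay further from the controls than Abcc2 in both other groups, and its spread was larger in the control and doubly modified groups. Its signal was lowest in control GMPs. It was 3.97, 4.14, 3.81 and 3.18 on control arrays, 5.32, 4.74 and 4.77 on Irf8 KO arrays, and 4.73, 4.40, 5.66 and 6.01 on Irf8 KO / b-cat(Ex3) arrays (log2). No control reached the lowest array of either Irf8-deficient group. The doubly modified arrays split into replicates 1 and 2, which lay below the Irf8 KO arrays (replicate 1 narrowly), and replicates 3 and 4, which lay above them. Means were 3.78 ± 0.42 (SD, n = 4) in controls, 4.94 ± 0.33 (SD, n = 3) in Irf8 KO and 5.20 ± 0.76 (SD, n = 4) in doubly modified GMPs. Its probe set was brighter than 35.5 to 51.3% of all probe sets on control arrays and brighter than 56.9 to 72.9% on doubly modified ones. For Abcc5 too, whether the dim control signal lies above background is not known, and its differences from control rest on that signal.

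Bcl2 was bright in control GMPs and lower in both Irf8-deficient groups. Its log2 signal was 8.23, 7.94, 7.98 and 7.84 on control arrays, 6.97, 6.55 and 7.17 on Irf8 KO arrays, and 6.60, 7.04, 6.27 and 6.29 on Irf8 KO / b-cat(Ex3) arrays. The lowest control stood above the highest array of either other group, and the Irf8 KO and doubly modified arrays overlapped. Means were 8.0 ± 0.16 (SD, n = 4), 6.90 ± 0.32 (SD, n = 3) and 6.55 ± 0.36 (SD, n = 4). Between 89.3 and 92% of probe sets were dimmer than that of Bcl2 on control arrays, and between 75.8 and 82.3% on doubly modified arrays. Doubly modified replicates 3 and 4, the highest for Abcc5, were the lowest for Bcl2. In bulk samples such as these, fewer cells that express a gene and less of its RNA per cell cannot be told apart.

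**Figure D1:**
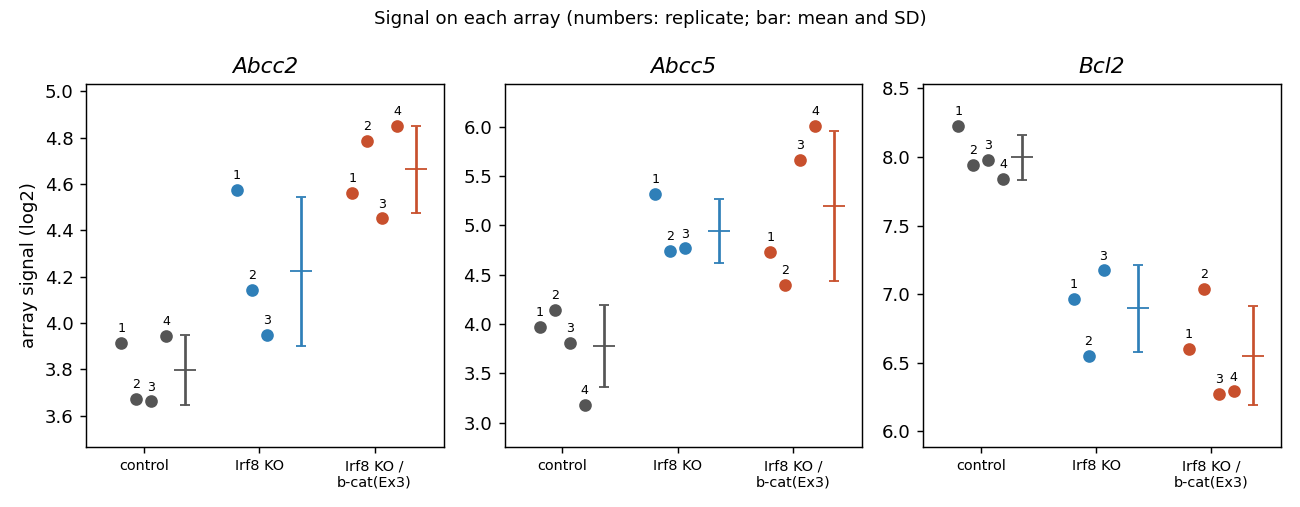
Log2 array signal (vertical axes, a separate scale for each gene) of Abcc2, Abcc5 and Bcl2 on the 4 control, 3 Irf8 KO and 4 Irf8 KO / b-cat(Ex3) arrays; points are arrays numbered by replicate, and the bar beside each group gives its mean and SD. Both transporters were lowest on the control arrays, and Bcl2 was highest there, between 7.84 and 8.23.

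**Figure D2:**
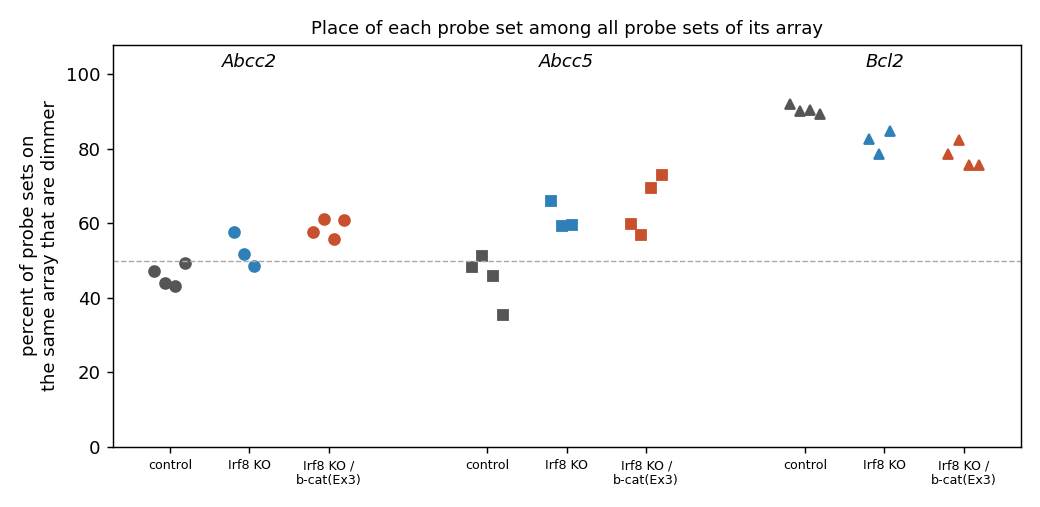
Percent of the 45037 probe sets on the same array that were dimmer than the probe set of each gene (vertical axis), 1 point per array, by group. The dashed line marks the middle of the array; Abcc2 lay below it on the 4 control arrays (43.3 to 49.4%), and Bcl2 was the only one of the 3 above 75% on every array.

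The doubly modified GMPs against control GMPs is the contrast whose changes the table lists and limits in size, so its values describe the selection and carry no test. Whether other arrays also entered the choice or the deposited p-values is not known. In the authors' deposited table the log2 change was 0.86 for Abcc2 (1.82-fold, p = 0.000293), 1.42 for Abcc5 (2.68-fold, p = 0.00154) and −1.45 for Bcl2 (2.73-fold lower, p = 0.000281). By size of change Bcl2 ranked 94 and Abcc5 101 of 638 in the authors' deposited table, against 361 for Abcc2. The smallest change kept in the authors' deposited table was 0.586 and the largest p-value 0.0016, so Abcc5 stood near the p-value limit, at rank 624 of 638 by p. In this contrast 6.13% of all probe sets had a limma adjusted p under 0.05. All 3 genes had groups that did not overlap in it, as had 6.81% of all probe sets in the higher and 5.24% in the lower direction.

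The step from control to Irf8 KO GMPs asks what loss of Irf8 alone does before beta-catenin is activated. That holds only if the floxed allele of the controls was not excised, which the labels do not settle. Bcl2 fell, by 1.10 on the log2 scale (2.15-fold lower, SE 0.20, 95% interval −1.53 to −0.67, limma adjusted p = 0.0149), and was lower than every control in 3 of 3 arrays. Abcc5 was 1.16 higher on the log2 scale (2.24-fold, SE 0.36, 95% interval 0.39 to 1.94), above every control in 3 of 3 arrays, and did not pass (limma adjusted p = 0.157). Abcc2 was 0.42 higher (1.34-fold, SE 0.16, 95% interval 0.08 to 0.77) and did not pass (limma adjusted p = 0.262); without Irf8 KO replicate 1 the difference was 0.25. Thus 1 of the 3 genes was called at an adjusted p under 0.05, against 1.75% of all probe sets (0.81% higher and 0.941% lower). Groups that did not overlap were seen for all 3 genes, for 6.92% of all probe sets in the higher and for 7.01% in the lower direction. These tests share the control arrays with the contrast that chose the genes, so they are not independent of the choice. The Irf8 KO arrays did not enter the deposited fold changes, but whether they entered the choice in another way is not known. The call for Bcl2 was lost when control replicate 1 (adjusted p = 0.0531), Irf8 KO replicate 1 (adjusted p = 0.0596) or Irf8 KO replicate 2 (adjusted p = 0.072) was left out of the limma fit, with the value between −1.24 and −0.93 over all single omissions.

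The step from Irf8 KO to Irf8 KO / b-cat(Ex3) GMPs asks what activated beta-catenin adds once Irf8 is gone. Group means of the 3 genes differed in the same direction as in the first step, and none passed the test. The contrast that chose the genes spans both steps, which favours such agreement, so it is no sign of a continued trend. Abcc2 was 0.44 higher on the log2 scale (1.36-fold, 95% interval 0.10 to 0.79, limma adjusted p = 0.615), Abcc5 0.26 higher (1.20-fold, 95% interval −0.52 to 1.04, limma adjusted p = 0.909) and Bcl2 0.35 lower (−0.35, 95% interval −0.78 to 0.09, limma adjusted p = 0.766). By limma 0 of the 3 genes were called, against 0.00444% of all probe sets (1 higher and 1 lower, 0.00222% each). Over all probe sets 3182 had an unadjusted p under 0.05 by limma, among them that of Abcc2. The intervals leave room for an added change of up to 1.04 for Abcc5 and of −0.78 for Bcl2. Over single omissions the value for Abcc5 ran from −0.01 (without doubly modified replicate 4) to 0.53 (without doubly modified replicate 2), and that for Bcl2 from −0.52 (without Irf8 KO replicate 2) to −0.21 (without Irf8 KO replicate 3). For each of the 3 genes the doubly modified arrays overlapped the Irf8 KO arrays, while 3.67% of all probe sets had doubly modified arrays wholly above and 3.07% wholly below. These tests share the doubly modified arrays with the contrast that chose the genes.

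**Figure D3:**
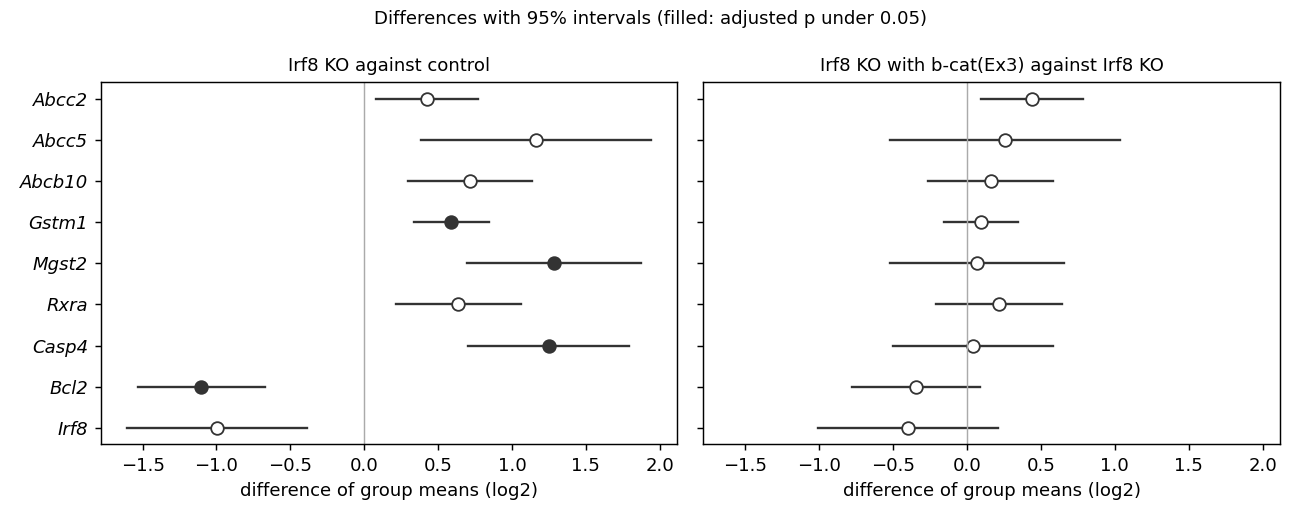
Difference of group means on the log2 scale (horizontal axes) with its 95% interval from limma, for the 3 genes and for related genes, in the step from control to Irf8 KO (left) and from Irf8 KO to Irf8 KO / b-cat(Ex3) (right); filled points passed an adjusted p of 0.05. Bcl2 passed on the left at −1.10 and no gene drawn passed on the right.

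Irf8 itself, the gene deleted by design, was measured at 9.38, 9.46, 9.78 and 9.23 on control arrays, 8.60, 7.90 and 8.89 on Irf8 KO arrays, and 8.35, 8.63, 7.51 and 7.77 on doubly modified arrays (log2, probe set of the deposited table). Every array of a labelled knockout was below every control, yet none was near the dim end of its array, since 87.1 to 95% of probe sets were dimmer there. The difference of Irf8 KO from control was −1.0 (limma adjusted p = 0.116). Whether the probes lie in the deleted part of the gene is not known, so this value does not check the labels. Irf8 and Bcl2 ordered the doubly modified arrays alike at the ends, with replicate 2 highest and replicates 3 and 4 lowest for both.

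The table holds 638 of 45037 probe sets (1.42%), so most members of any family lie outside it, and the counts that follow only say which relatives could be named. Of 15 drug efflux transporters listed, which include the P-glycoprotein genes Abcb1a and Abcb1b and the breast cancer resistance protein Abcg2, only Abcc2 and Abcc5 were in it, and of 52 ABC transporter genes 1 more, Abcb10, a transporter of the inner mitochondrial membrane needed for haem synthesis in red cell precursors. Abcb10 signal was 5.56, 6.43, 6.18 and 6.43 on control arrays and between 6.73 and 6.94 on Irf8 KO arrays, a difference of 0.72 that did not pass (limma adjusted p = 0.101). No member (0) of 15 genes for drug uptake and drug-activating enzymes was in the table.

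Glutathione transferases attach glutathione to foreign compounds, and such conjugates are what Abcc2 exports. Of 27 genes of glutathione conjugation and of its regulation, 3 were in the table, and in Irf8 KO against control GMPs 2 of these rose and 0 fell, against 0.81% and 0.941% of all probe sets. Mgst2, a membrane-bound transferase, rose by 1.28 on the log2 scale (2.44-fold, SE 0.27, limma adjusted p = 0.0336), from 7.91, 8.29, 8.07 and 8.96 on control arrays to 9.88, 9.49 and 9.41 on Irf8 KO arrays. Gstm1, a soluble transferase, rose by 0.59 (1.5-fold, SE 0.12, limma adjusted p = 0.0234), from between 7.34 and 7.81 to between 8.08 and 8.22. Rxra, the partner of the nuclear receptors that switch on drug-handling genes, was 0.64 higher (limma adjusted p = 0.156). The median difference of the 3 was 0.64, against 0.01 over all probe sets, but the 3 had been selected with the same control arrays. In the step to Irf8 KO / b-cat(Ex3) none of the 3 passed (0 of 3 by limma, against 0.00444% of all probe sets), with differences of 0.07, 0.10 and 0.22 for Mgst2, Gstm1 and Rxra.

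Few regulators of cell death were in the table, which at 1.42% of all probe sets is a small selection. Of 8 survival members of the Bcl2 family, among them Mcl1 and Bcl2l1, only Bcl2 was in the table, and of the 3 pore-forming and 10 BH3-only members, which promote death, 0 were. A further relative of Bcl2 by sequence, Bcl2l15, was in the table but in none of these lists, and is described under other observations. The members outside the table were not measured by name, so nothing is known here of how they differed. Of 22 genes for caspases, their activators and their inhibitors, 1 was in it, the inflammatory caspase Casp4, which in the mouse senses bacterial lipopolysaccharide inside the cell. In Irf8 KO against control GMPs 0.81% of all probe sets were called higher. Casp4, which had been selected with the same control arrays, rose in that step by 1.25 (2.38-fold, SE 0.25, limma adjusted p = 0.0258). Its signal was 6.24, 6.71, 6.01 and 6.23 on control arrays, 7.93, 7.44 and 7.26 on Irf8 KO arrays, and 7.35, 7.05, 8.01 and 7.94 on doubly modified arrays. Between the last 2 groups it differed by 0.04 (95% interval −0.50 to 0.59, limma adjusted p = 0.983).

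**Figure D4:**
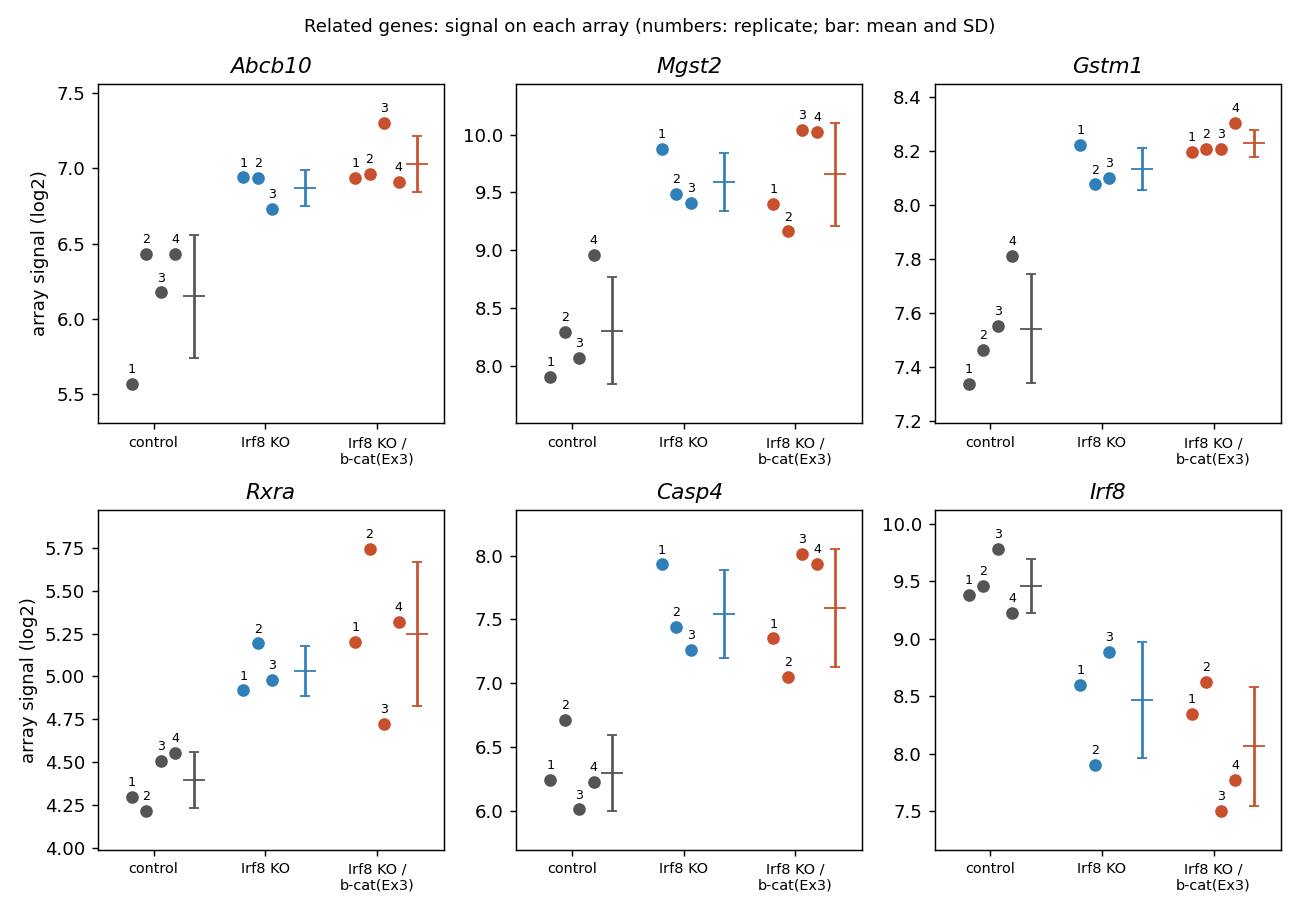
Log2 array signal (vertical axes, separate scales) of Abcb10, Mgst2, Gstm1, Rxra, Casp4 and Irf8 by group, with arrays numbered by replicate and the mean and SD beside each group. Irf8 KO and Irf8 KO / b-cat(Ex3) arrays overlapped for each of the 6 genes, and Irf8 was at 9.23 or above on all control arrays.

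Likeness of pattern was measured as Pearson's r over the 11 arrays among the other 637 genes of the table, which share arrays and were selected on the same contrast, so high values are built in. Nearest to Abcc2 were the interferon-induced ADP-ribosyltransferase Parp12 (r = 0.946) and the guanylate-binding protein Gbp6 (listed as Mpa2l, r = 0.942). Nearest to Abcc5 were Casp4 (r = 0.936), the signalling adaptor Arrb2 (r = 0.932) and Gmip (r = 0.922). Nearest to Bcl2 were the RNA uridylyltransferase Tut4 (listed as Zcchc11, r = 0.971), the cytoskeletal GTPase Septin8 (r = 0.969) and the protein kinase A inhibitor Pkib (r = 0.967). The genes named as nearest to Abcc2 differ from those nearest to Abcc5. Only the few highest of 637 genes were named for each, so this difference does not tell how alike the transporters were. Tut4, Septin8 and Pkib were picked for their likeness to Bcl2 on these same arrays, so a fall where Bcl2 fell was built in as well. In Irf8 KO against control GMPs Pkib and Septin8 fell by 1.22 (limma adjusted p = 0.0105) and by 1.20 (limma adjusted p = 0.00404). Tut4 differed by −0.53 without passing (limma adjusted p = 0.0505).

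Some markers of other blood cells were in the table, and their part in the results for Abcc2, Abcc5 and Bcl2 was not tested. These markers had been selected for a difference between doubly modified and control arrays, so that movement was built in. In Irf8 KO against control GMPs Gata1, Car1 and Klf4 passed, all lower, against 0.941% of all probe sets. Hoxa9, Cd27, Mcpt8, Hdc, Cd177, Cd14 and Adgre1 did not pass in that step. Of 10 erythroid and megakaryocyte markers, Gata1 and Car1 were in the table, and their summed linear signal was 64.2 to 146 on control, 18.4 to 22.2 on Irf8 KO and 16.3 to 20.4 on doubly modified arrays. The summed signal of Hoxa9 and Cd27, 2 of 9 stem and early progenitor markers, was 233 to 296, 148 to 322 and 45.7 to 133 in the same order. That of Mcpt8 and Hdc, 2 of 9 eosinophil, basophil and mast cell markers, was 354 to 656, 258 to 321 and 161 to 257. Cd177, 1 of 12 neutrophil markers, gave 13 to 113, 79.9 to 187 and 163 to 761. Its highest control was replicate 4, at 6.82 on the log2 scale against 3.76, 4.17 and 3.73 on replicates 1 to 3. Klf4, Cd14 and Adgre1, 3 of 10 monocyte and macrophage markers, summed to 201 to 294, 78.6 to 157 and 101 to 256. These 3 did not move together: in Irf8 KO against control GMPs Klf4, which carried most of the summed signal of the controls, fell by 3.01 on the log2 scale (limma adjusted p = 0.0036), while Cd14 and Adgre1 were 0.87 and 0.80 higher without passing (limma adjusted p = 0.438 and 0.283). The 13 lymphoid, 7 dendritic cell and 12 GMP markers had 0 members in the table, so the labelled cell type could not be checked against its markers. Control replicate 4 stood apart from the other controls (r = 0.981 to 0.987, against 0.993 or more among the other 3). Among the doubly modified arrays the lowest correlation was between replicates 2 and 3 (r = 0.971), with r of up to 0.986 and 0.988 to the rest of the group, and array weights were 0.478 and 0.741. Without control replicate 4 and doubly modified replicate 2, the arrays of lowest weight, Bcl2 was lower in Irf8 KO than in control GMPs by a log2 difference of −1.15 (limma adjusted p = 0.00455), and Abcc5 and Abcc2 were higher by 0.96 (limma adjusted p = 0.0985) and 0.47 (limma adjusted p = 0.175).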

How the data were processed

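Log2 signals per probe set on 11 arrays, and a table of 638 genes, were deposited by the authors. Each row of that deposited table gives the p-value, then the change in log2 and then as a signed fold ratio. Per the labels' protocols, RNA was amplified from under 20 ng. The summarization and normalization of the arrays and the test behind the deposited p-value are described in no source used here; the log2 signals ran from 0.987 to 13.2 with medians of 3.92 to 4.09 and were used as deposited. The scale is log2 because the deposited fold changes are differences of these signals. Direction follows from that match (tolerance 1e-08); p-values of the fit below correlated with the deposited ones (r = 0.642 on the log10 scale) without equalling them. The probe sets were named only through the match, 1 per gene, and symbols were updated through Entrez identifiers for the 621 genes found in the RefSeq table of GRCm38.p6.

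All 11 arrays were fitted with limma 3.58.1 in R 4.3.3 (3 groups, empirical Bayes, Benjamini-Hochberg over 45037 probe sets for each comparison, called at 0.05), and the fit was tested on simulated data. Replicates are biological per the labels, and the series text describes separate pools. The number of arrays limits the precision, and no detection calls were available. The members and gene lists were chosen with earlier results of these data known. Named genes were the members, listed genes in the table, Irf8, and for each member the 3 genes of highest correlation, of which 1 is not reported here; Ctnnb1 and Axin2 were not in the table, and naming by the brightest probe set could not be done. Alternatives were quantile normalization, a filter on dim probe sets, a trended robust spread, array weights, 2-group fits, a replicate block and leaving out each array. Motifs were searched with Python 3.11.15.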

Additional observations from a re-analysis of the deposited data

How the results depend on the processing

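Over 18 alternatives each, Abcc2 in both steps and Bcl2 in the step to doubly modified GMPs kept their direction and did not pass; Abcc2 in Irf8 KO against control ranged from 0.25 to 0.56. For Bcl2 in Irf8 KO against control GMPs 15 of 18 alternatives kept the limma call (over all 18, adjusted p = 0.0025 to 0.072), and single omissions gave −1.24 to −0.93 and 0 to 1 called genes of the Bcl2 family. Abcc5 in that step passed in 1 alternative, the fit of the 2 groups alone (1.16, limma adjusted p = 0.0411, range 0.0411 to 0.461), which raised the efflux transporters called to 1; in the step to doubly modified GMPs it ran from −0.012 (without doubly modified replicate 4) to 0.53 over single omissions. In the contrast that chose the genes, no alternative moved a value by more than the spread between replicates.

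The counts over all probe sets depended on single arrays. For Irf8 KO against control (789) they were 1658 with array weights, 347 to 1039 over single omissions and 1561 without control replicate 4 and doubly modified replicate 2 together, which was tried only after inspecting the arrays. For Irf8 KO / b-cat(Ex3) against Irf8 KO (2) they were 0 with the 2 groups alone, 1 to 10 over single omissions and 11 without both arrays; for that group against control (2761), 4395 with array weights and 1477 to 3673 over single omissions. The causes were not tested.

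Replicate numbers did not pair the arrays: same-numbered arrays of different groups had deviations correlated at −0.228 to 0.171, over 0.1 in 1 of 10 pairs, and 1 of 11 arrays correlated best with its own number. With the replicate block the calls were 658, 2 and 2443, and Bcl2 in Irf8 KO against control stood at −1.17 (limma adjusted p = 0.0368). Averaging several probe sets per gene, or calling a gene by any of them, was not run, because 1 probe set per gene has a name. Of 6 groups of 4 arrays, 0 held an array far from the rest for Abcc2, Abcc5 or Bcl2 (Dixon's test).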

Other observations

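Of the relatives of these genes by name, 2 were in the table without standing in a list, and both were picked after their values were seen. Gstm4, a soluble glutathione transferase, had a log2 signal of 5.50 to 6.06 on control arrays, 6.16 to 6.80 on Irf8 KO arrays and 6.50 to 6.84 on Irf8 KO / b-cat(Ex3) arrays, 0.73 higher in Irf8 KO than in control GMPs (limma adjusted p = 0.0626). Bcl2l15, a relative of Bcl2 by sequence, was among the dimmest probe sets named here, at 2.36 to 2.70 on control arrays, where 15.6 to 23.8% of probe sets were dimmer, 2.61 to 2.82 on Irf8 KO arrays and 2.57 to 3.87 on doubly modified arrays. Its doubly modified and control arrays overlapped, although the gene was in the table.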
